A study of Mus musculus with 9 samples.

Results

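The genes described here encode the subunits of the oxidative phosphorylation system of mitochondria, as measured in the ventricles of mice with raised or lowered activity of phosphoinositide 3-kinase (PI3K). They were taken by symbol, as the Nduf, Sdh, Uqcr, Cox4 to Cox8 and Atp5 genes together with Cyc1 and Cycs, and each gene was represented by its probe set with the highest mean over the 9 arrays. This gave 70 genes of the 8252 with a single-symbol probe set: 28 of complex I, 4 of complex II, 8 of complex III with Cyc1 counted there, Cycs, 15 of complex IV and 14 of complex V. All 70 symbols were found unchanged in the mouse reference gene table. Sdha, the flavoprotein subunit of succinate dehydrogenase that served as the check gene of the set, was well measured on all 9 arrays, at 1814 to 2794 normalized intensity units.

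The study compared ventricular RNA from 3 groups of 3 mice, with 1 array per animal, and asked how PI3K activity bears on heart size. The caPI3K mice carried a transgene for a constitutively active PI3K and, per the labels, their hearts exceeded those of wild type littermates in size by 20%. The dnPI3K mice carried a transgene for dominant-negative forms of the enzyme and had hearts 17% smaller. NTG mice carried no transgene and served as controls for both lines, so both comparisons with NTG share the same 3 arrays. The sources used here do not give the promoter that drove the transgenes or the age, sex and strain of the mice. The titles give each array its own number, taken here to be that of the animal, though the titles do not say so. The p-values measure only the spread between these animals and arrays.

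Oxidative phosphorylation passes electrons from NADH through complex I, or from succinate through complex II, by way of ubiquinone to complex III, cytochrome c and complex IV, where oxygen is reduced. Proton pumping by complexes I, III and IV drives ATP synthesis by complex V. The adult heart beats almost entirely on this ATP, and its cardiomyocytes are packed with mitochondria. Most subunits are encoded in the nucleus, and nuclear respiratory factor 1 (NRF1), GABP and other ETS factors, YY1 and estrogen-related receptors are known regulators of these genes.

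Promoter sequences of RefSeq (GRCm38.p6) were available for 56 of the 70 genes, as 61 windows of 300 bases that run from 250 bases before to 50 after a transcript start. The NRF1 motif GCGCANGCG, searched on both strands, stood in 26.2% of the members' windows and in 6.25% of all 32851 windows. The ETS motif CCGGAAG was in 24.6% against 8.86%, the YY1 motif AAGATGGCG in 8.2% against 1.4% and the estrogen-related receptor motif TNAAGGTCA in 1.64% against 1.28%. Base composition of the windows was not matched, and a match describes the letters only. The stretches of 170 bases that end at the base before the start are shown for 4 genes, with motif matches in capitals: Sdha, the check gene with 3 separate NRF1 matches; Cox6a1, whose signal is set against that of its muscle isoform further on; Cycs, which encodes cytochrome c; and Cox7a1, a muscle isoform with no match in the stretch. In Cox6a1 the last capitals mark the ETS motif on the opposite strand, and its first run holds 2 overlapping NRF1 matches. The stretches lie on the minus strand at chr13:74350241-74350410 for Sdha, chr5:115348959-115349128 for Cox6a1 and chr6:50566570-50566739 for Cycs, and on the plus strand at chr7:30184001-30184170 for Cox7a1.
Sdha: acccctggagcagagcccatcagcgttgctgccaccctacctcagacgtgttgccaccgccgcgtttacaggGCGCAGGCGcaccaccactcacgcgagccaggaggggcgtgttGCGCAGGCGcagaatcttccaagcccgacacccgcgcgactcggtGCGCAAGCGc
Cox6a1: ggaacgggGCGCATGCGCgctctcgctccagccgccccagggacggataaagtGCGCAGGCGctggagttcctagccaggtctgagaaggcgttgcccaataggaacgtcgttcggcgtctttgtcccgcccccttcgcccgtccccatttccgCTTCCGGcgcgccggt
Cycs: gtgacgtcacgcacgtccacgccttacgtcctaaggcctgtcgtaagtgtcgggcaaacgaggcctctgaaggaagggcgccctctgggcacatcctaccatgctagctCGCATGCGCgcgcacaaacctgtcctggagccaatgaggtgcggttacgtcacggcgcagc
Cox7a1: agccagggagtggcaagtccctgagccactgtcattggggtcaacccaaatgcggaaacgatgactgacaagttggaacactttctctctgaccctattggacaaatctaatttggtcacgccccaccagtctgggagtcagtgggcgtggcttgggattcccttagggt

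The summed signal of the 8 ventricular cardiomyocyte markers on the array (of 10 listed) was 215553 to 222992 in caPI3K, 223509 to 235003 in dnPI3K and 215836 to 240473 in NTG. The 11 skeletal muscle markers summed to 37071 to 45034 in caPI3K, 12097 to 17084 in dnPI3K and 19332 to 24130 in NTG. Skeletal Tnni2 and Myh1 did not reach the filter on dim probe sets. The 4 smooth muscle markers summed to 3148 to 4012 in dnPI3K against 2069 to 2218 in NTG and 1324 to 1755 in caPI3K. Atrial signal was uneven: Myl7, the atrial light chain, read 7253, 4703 and 315 in NTG, 653, 525 and 5579 in caPI3K and 36.5, 142 and 42.2 in dnPI3K, and Myl4 followed it array by array. Both were lower in dnPI3K than in NTG (log2 fold changes of -5.19 ± 1.16 and -5.48 ± 1.15 SE, limma adjusted p = 0.0476 and 0.04), while the natriuretic peptide Nppa lay at 1.48 ± 0.461 (adjusted p = 0.148). So 2 NTG arrays and 1 caPI3K array of this ventricular series carried clear signal of these atrial light chains. The sum over all 4 atrial markers, Myl4, Myl7, Sln and Nppa, did not divide the arrays in that way. It was 2118 to 21023 in NTG, 2424 to 13434 in caPI3K and 8684 to 11332 in dnPI3K. The sums for brown fat were 874 to 1098 in caPI3K, 567 to 772 in dnPI3K and 652 to 960 in NTG, and those for white fat, fibroblasts, endothelial cells, macrophages and red cells overlapped between all 3 groups. No marker had a value of 0. The dnPI3K arrays stood apart in control probe sets: the geometric mean of the spike-in controls was 1760 ± 210 (SD, n = 3), against 3035 ± 458 in NTG and 3089 ± 302 in caPI3K, and the 3′ probe set for 18S ribosomal RNA read 3303 to 8097 against 462 to 671 on the other arrays. The part of any of these in the results below was not tested. In whole ventricle, fewer cells of a type and less RNA per cell cannot be told apart.

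Oxidative phosphorylation genes gave some of the strongest signals on the array. Of the 70 representatives, 26 ranked among the 100 brightest of 12488 probe sets and 54 among the brightest 1000, with a median rank of 152.5. A rank reflects the probe set as well as the transcript, so it does not order the subunits by abundance. All but Cox8a, the ubiquitous isoform of subunit VIII, passed the filter on dim probe sets, which left 69 members tested. The median standard error (SE) of their log2 fold changes was 0.0994, against 0.251 over all 10645 probe sets tested.

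No member gene differed between groups at the threshold, an adjusted p below 0.05 in limma's moderated test with Benjamini-Hochberg adjustment over all probe sets. In caPI3K against NTG, 0 of 69 members passed, where 0.0845% of all probe sets did (0.047% higher and 0.0376% lower). In dnPI3K against NTG the count was 0 of 69 against 2.18% of all (1.01% higher and 1.16% lower), and in caPI3K against dnPI3K it was 0 of 69 against 3.24% (1.7% higher and 1.54% lower). A probe set shared by several subunit gene symbols did pass in the last comparison, while another with the same symbols did not. Their symbols fit the rule for members, but both were left out for carrying more than 1 symbol. The F test over the 3 groups called 0 of 69 members and 2.63% of all probe sets. At an unadjusted p under 0.05, 3 members were lower and 1 higher in caPI3K than in NTG (4.35% and 1.45% of members, beside 3.21% and 3.68% of all). In dnPI3K against NTG 13 were lower and 3 higher (18.8% and 4.35%, beside 7.23% and 7.58%). In caPI3K against dnPI3K 6 were lower and 6 higher (8.7% each, beside 8.33% and 8.1%).

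On the quantile-normalized scale most intervals were narrow, which covers the spread between arrays but not the choice of scaling. The 95% confidence interval of the log2 fold change lay within -0.5 and 0.5 (1.41-fold either way) for 55 of 69 members in caPI3K against NTG, for 51 in dnPI3K against NTG and for 54 in caPI3K against dnPI3K. Among the 54 bright members every interval lay within -1 and 1 in all 3 comparisons. The wide intervals belonged to dim probe sets such as those of Ndufc2, Cox5a, Cox6b2 and Ndufa12.

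**Figure D1:**
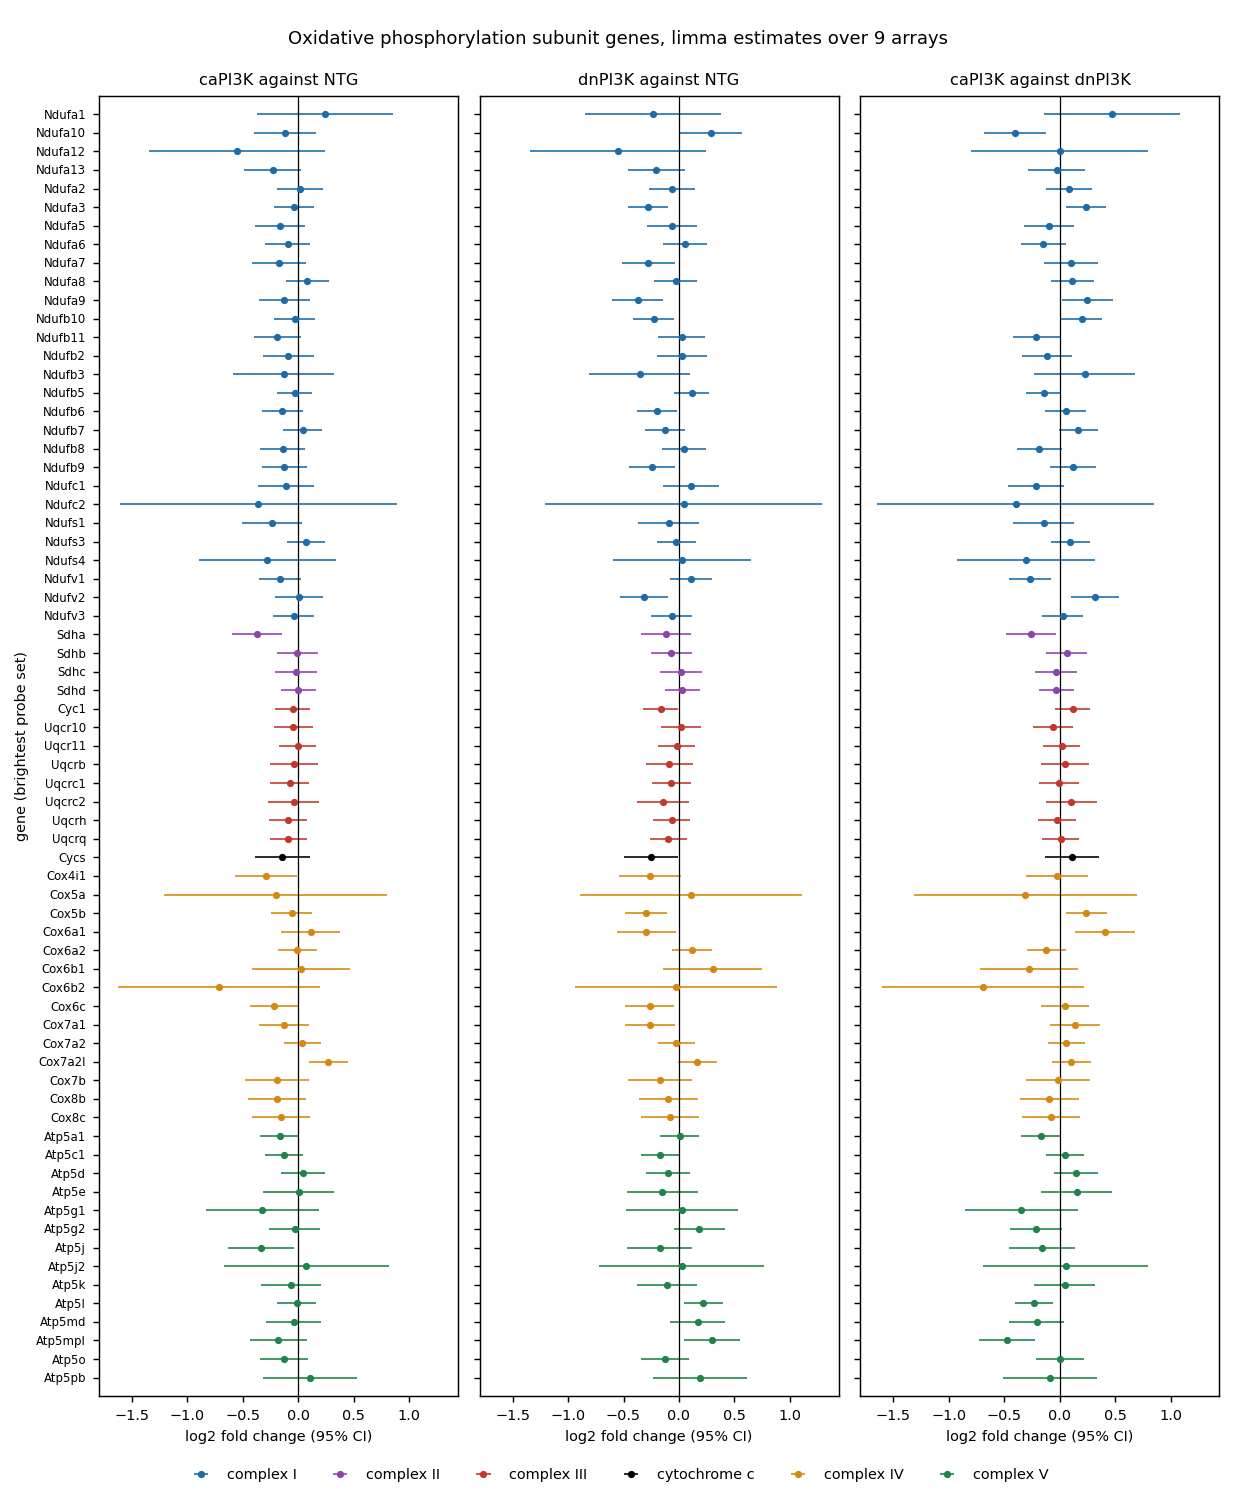
Log2 fold change of each of the 69 tested member genes (points) with its 95% confidence interval (bars), in rows by gene and coloured by complex, with 1 panel for each of the 3 comparisons. Most points lie within 0.5 of 0, and the widest bars belong to dim probe sets such as Ndufc2 and Cox5a.

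The members leaned to one side in both comparisons with NTG, by a small amount. The median log2 fold change was -0.09 in caPI3K and -0.07 in dnPI3K, beside 0.00 over all probe sets in each, and 55 of 69 (79.7%) and 44 of 69 (63.8%) members lay below 0, beside 50.2% and 49.5% of all. Between caPI3K and dnPI3K the median was -0.01, with 36 of 69 below 0 (52.2%, beside 49.9%). All 3 arrays of caPI3K lay below all 3 of NTG for 10 members and above them for 2 (5.59% and 6.5% of all probe sets did so). For dnPI3K against NTG these counts were 15 and 5 (9.21% and 9.91%), and for caPI3K against dnPI3K 14 and 11 (12.3% and 11.4%). Since the NTG arrays are shared, a low or high NTG value moves both comparisons the same way.

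These directions depended on how the arrays were scaled. With quantile normalization, 14 members lay above (49.8% of all probe sets did) and 55 below 0 in caPI3K against NTG, with the deposited values 16 and 53, and with each array scaled to the same median 37 and 32, with a median of 0.0068. For dnPI3K against NTG the split was 25 above (50.5% of all) and 44 below, 8 and 61 with the deposited values (median -0.20), and 18 and 51 at the same median (-0.12). For caPI3K against dnPI3K it was 33 above (50.1% of all) and 36 below, and 48 and 21 under both other scalings (medians 0.12 and 0.13). The median over all probe sets moved too, in caPI3K against NTG from -0.00069 to -0.039 with the deposited values and 0.037 at the same median. The members' median less that of all probe sets was -0.088, -0.036 and -0.030 there under the 3 scalings. For dnPI3K against NTG it was -0.071, -0.159 and -0.154, and for caPI3K against dnPI3K -0.0083, 0.13 and 0.13.

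**Figure D2:**
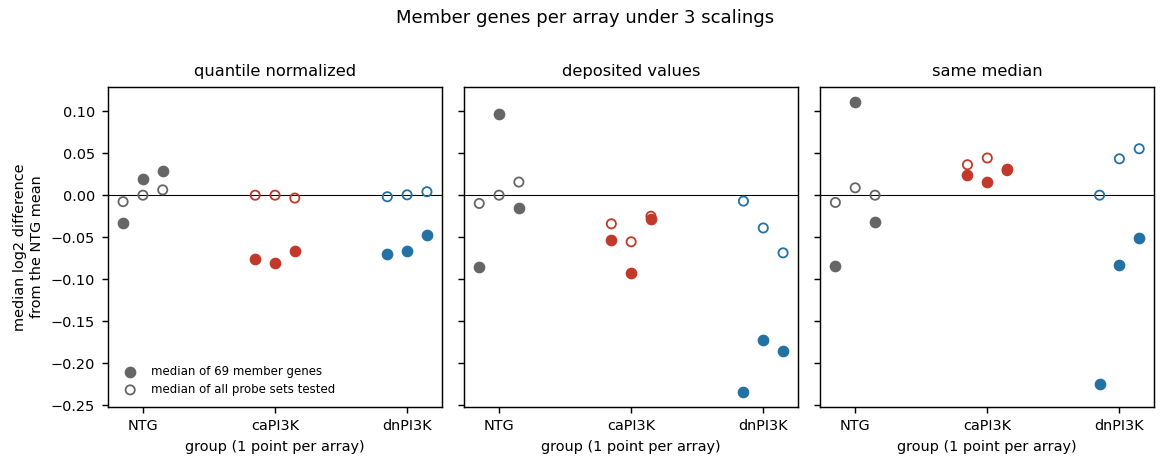
Median log2 difference from the NTG mean, per array, of the 69 member genes (filled points) and of all probe sets tested (open points), under quantile normalization, with the deposited values and with each array scaled to the same median. The dnPI3K arrays lie lowest with the deposited values, at -0.23 to -0.17, while the caPI3K arrays lie below 0 with the first 2 scalings and above 0 with the last. With the last, the open points of caPI3K also lie above 0, at 0.029 to 0.044.

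In dnPI3K against NTG the scaling moved the brightest members most. The mean of the 50 brightest probe sets in the deposited values was 21578 to 22942 on dnPI3K arrays, 26129 to 31740 on NTG and 27146 to 29822 on caPI3K arrays, a gap that quantile normalization removes by construction. For the 26 members ranked 1 to 100, the median dnPI3K against NTG was -0.04 after quantile normalization and -0.24 with the deposited values. For the 28 ranked 101 to 1000 it was -0.10 and -0.18, and for the 15 dimmer members 0.03 and -0.06. In caPI3K against NTG the step from quantile normalization to the same median moved all 3 brightness classes alike, from -0.06 to 0.04, from -0.09 to 0.01 and from -0.15 to -0.07. Quantile normalization also narrowed the errors of the 26 brightest, from a median SE of 0.112 to 0.0825.

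**Figure D3:**
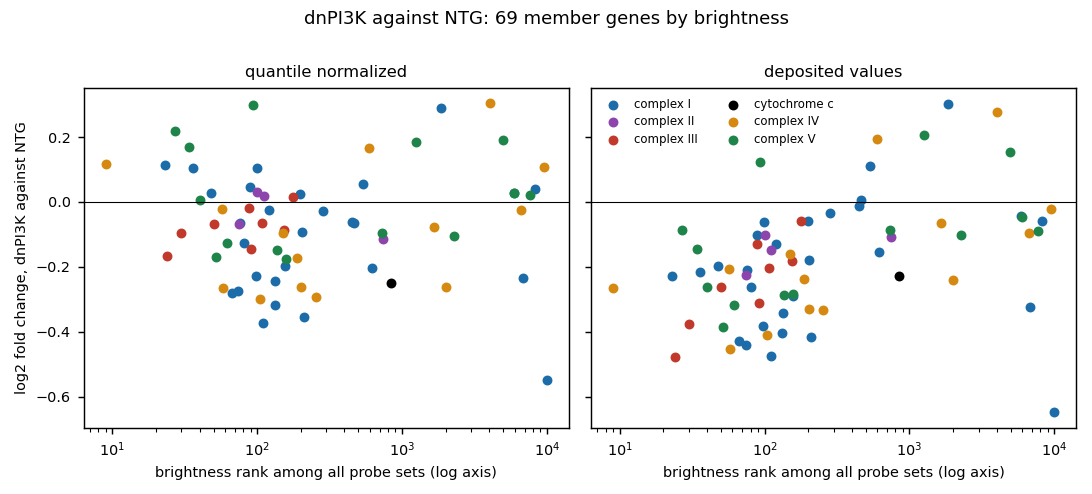
Log2 fold change of dnPI3K against NTG of the 69 member genes by the brightness rank of their probe set (log axis), coloured by complex, after quantile normalization and with the deposited values. In the brightest 100 ranks, 15 of 26 members lie below 0 on the left and 25 of 26 on the right.

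Complex I, the NADH dehydrogenase, had a median of -0.12 in caPI3K and -0.07 in dnPI3K against NTG, with 22 and 18 of 28 members below 0. None passed the test in any comparison. At an unadjusted p under 0.05, 7 were lower and 1 higher in dnPI3K than in NTG (25% and 3.57%, beside 7.23% and 7.58% of all probe sets). Ndufa9, an accessory subunit near the ubiquinone site, had the smallest p of all members in dnPI3K against NTG. It read 13363, 15343 and 12304 in NTG, 11761, 12064 and 13696 in caPI3K and 9675, 11231 and 10684 in dnPI3K. All dnPI3K arrays lay below all others, and the log2 fold change against NTG was -0.37 ± 0.105 (SE), which did not pass (adjusted p = 0.109).

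Ndufv2, an iron-sulfur subunit of the NADH-oxidizing tip of complex I, read 10493, 11231 and 13566 in NTG, 12111, 11639 and 11424 in caPI3K and 9731, 9295 and 9131 in dnPI3K. Here too the dnPI3K arrays were the 3 lowest. The log2 fold changes were -0.32 ± 0.0979 (SE) against NTG (adjusted p = 0.145) and 0.32 ± 0.0979 for caPI3K against dnPI3K (adjusted p = 0.116). The latter passed with the deposited values (0.42, adjusted p = 0.0476) and without NTG replicate 3 (0.32, adjusted p = 0.0345). Ndufa3, a small membrane subunit, had -0.28 ± 0.0816 (SE) in dnPI3K against NTG (adjusted p = 0.122), and passed only where probe sets above the median signal alone were tested (adjusted p = 0.0495). With the deposited values it was -0.43 (adjusted p = 0.0689).

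Other subunits of the same complex lay the opposite way. Ndufa10, an accessory subunit of the membrane arm, read 1001, 971 and 995 in NTG, 977, 862 and 903 in caPI3K and 1348, 1309 and 997 in dnPI3K. A pair of dnPI3K arrays stood above all others while the remaining one was level with NTG. Its log2 fold change in caPI3K against dnPI3K was -0.40 ± 0.127 (SE; adjusted p = 0.125), and -0.54 without dnPI3K replicate 3, where it passed (adjusted p = 0.0453). Ndufv1, the flavin-binding partner of Ndufv2 in the NADH-oxidizing tip, had -0.27 ± 0.0854 (SE; adjusted p = 0.129) in the same comparison, and passed where only probe sets above the median signal were tested (adjusted p = 0.0438). Its sign turned with the deposited values (0.10) and at the same median (0.10), so it lay opposite to Ndufv2 only with quantile normalization. Ndufb5, the complex I probe set with the brightest signal, gave 0.12 ± 0.0723 (SE) in dnPI3K against NTG with quantile normalization, but -0.23 with the deposited values and -0.15 at the same median. The dim probe sets of Ndufa12, which lay at the floor on 2 arrays each of caPI3K and dnPI3K, and of Ndufa1 carry little information.

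**Figure D4:**
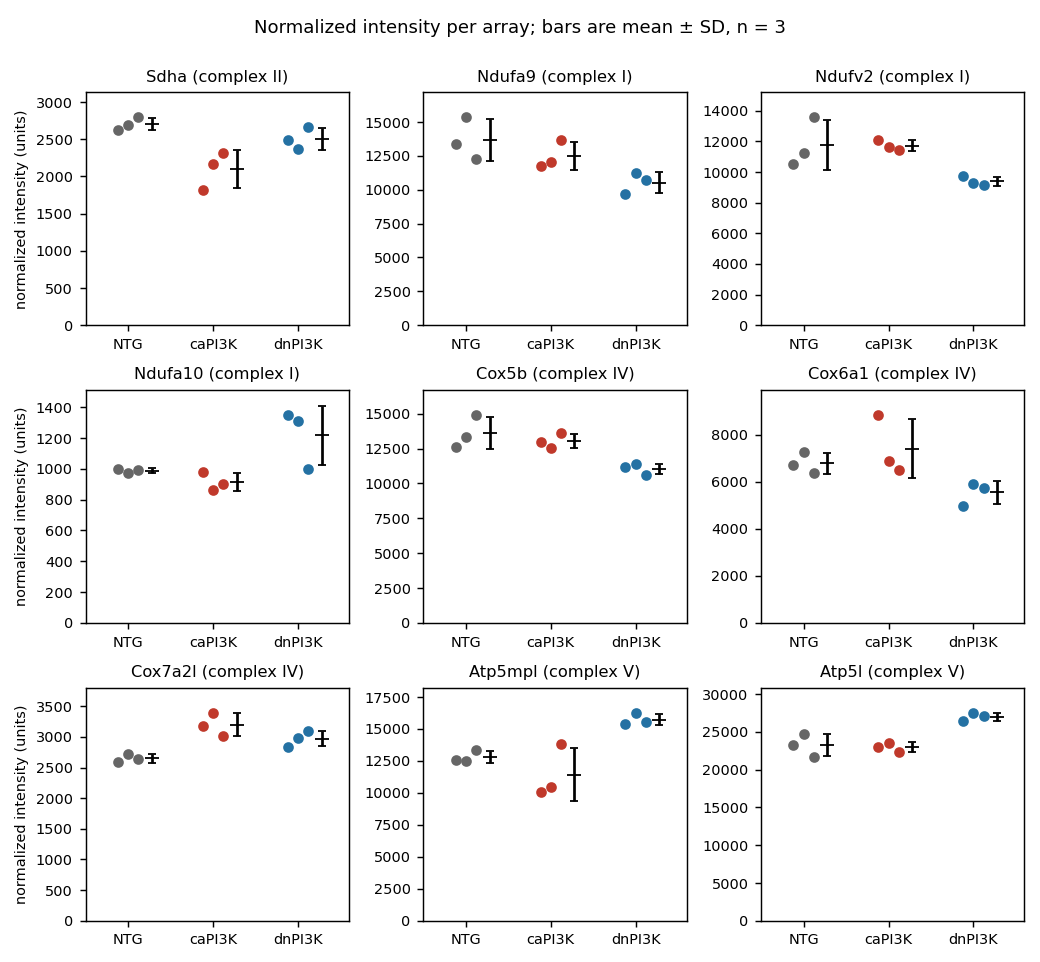
Normalized intensity on each array (points) with the mean and SD of 3 arrays (bars) for 9 member genes. The caPI3K arrays lie lowest for Sdha, the dnPI3K arrays lowest for Ndufa9, Ndufv2, Cox5b and Cox6a1 and highest for Atp5mpl and Atp5l.

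Complex II oxidizes succinate and also serves the citric acid cycle. Sdha, its catalytic subunit, had the smallest p of all members in caPI3K against NTG. It read 2629, 2695 and 2794 in NTG, 1814, 2161 and 2319 in caPI3K and 2484, 2364 and 2662 in dnPI3K. The 3 caPI3K arrays were the lowest of the 9, and the log2 fold change against NTG was -0.37 ± 0.102 (SE), with a 95% confidence interval of -0.60 to -0.15. With an adjusted p of 0.453 it did not pass, and the alternatives gave -0.45 to -0.27 with adjusted p of 0.391 to 0.732. The other 3 subunits lay close to 0 in this comparison: Sdhb, the iron-sulfur subunit, at -0.01 ± 0.0833, and Sdhc and Sdhd, the membrane anchors, at -0.02 ± 0.0866 and -0.00068 ± 0.0714 with overlapping arrays. At the same median Sdhb, Sdhc and Sdhd lay above 0 and Sdha still below, at -0.27. Whether Sdha differed from its partners was not tested.

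Complex III passes electrons from ubiquinone to cytochrome c. All 8 members lay below 0 in caPI3K against NTG and 7 of 8 in dnPI3K, with medians of -0.05 and -0.08, and none passed. In caPI3K 0 of 8 lay below 0 once arrays were scaled to the same median (median 0.05). The median over all probe sets was 0.037 on that scale, so the sign rests on the scaling. Cyc1, the cytochrome c1 subunit, read 27075, 26489 and 27075 in NTG, 25833, 25833 and 26221 in caPI3K and 23968, 23602 and 24309.8 in dnPI3K. The groups did not overlap in any comparison, but the log2 fold change in dnPI3K against NTG was only -0.17 ± 0.0713 (SE; adjusted p = 0.312).

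Cyc1 ranked among the brightest probe sets, where normalized values of the arrays are held close together. In the deposited values it read 26874, 32323 and 27275 in NTG, 27659, 26325 and 29244 in caPI3K and 19854, 20827 and 21187 in dnPI3K. On that scale Cyc1 was the only member to pass in dnPI3K against NTG, at -0.48 ± 0.106 (SE; adjusted p = 0.0469), and at the same median it did not (-0.40, adjusted p = 0.132). A dimmer probe set of Cyc1 lay at -0.07 in dnPI3K against NTG after quantile normalization (limma adjusted p = 0.919). Uqcrq, another bright subunit of complex III, lay at -0.09 ± 0.0769 and -0.10 ± 0.0769 (SE) in caPI3K and dnPI3K against NTG. With the deposited values these were -0.03 and -0.38 and at the same median 0.05 and -0.30, without passing. Cycs, cytochrome c itself, read 2171, 2168 and 2769 in NTG, 2016, 2304 and 2092 in caPI3K and 2087, 1915 and 1936 in dnPI3K, which gave -0.25 ± 0.111 (SE; adjusted p = 0.328) in dnPI3K against NTG, and -0.15 at the same median.

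Complex IV, cytochrome c oxidase, reduces oxygen. Of its 14 tested members 10 lay below 0 in each comparison with NTG, with medians of -0.14 in caPI3K and -0.09 in dnPI3K. Cox5b, a structural subunit on the matrix side, read 12626, 13317 and 14894 in NTG, 12969, 12548 and 13606 in caPI3K and 11146, 11361 and 10642 in dnPI3K. The dnPI3K arrays were the 3 lowest, at -0.30 ± 0.0843 (SE) against NTG without passing (adjusted p = 0.111). Cox4i1 lay at -0.29 ± 0.127 (SE) in caPI3K and -0.26 ± 0.127 in dnPI3K, and Cox6c at -0.22 and -0.26 with SEs of 0.0994. For Cox6c, a small membrane subunit, the 3 NTG arrays were the highest of the 9, and for Cox4i1, the largest nuclear-encoded subunit, all dnPI3K arrays and all but 1 caPI3K array lay below them. None of these differences passed. Cox6c moved with scaling, to -0.45 with the deposited values in dnPI3K and to -0.11 at the same median in caPI3K.

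Cox7a2l, a relative of subunit VIIa that joins complex III and complex IV into supercomplexes, was the member with the smallest p among those above 0 in caPI3K against NTG. It read 2588, 2726 and 2633 in NTG, 3184, 3389.6 and 3021 in caPI3K and 2840.1, 2988 and 3092 in dnPI3K. All 6 transgenic arrays lay above the 3 NTG arrays, at 0.27 ± 0.0802 (SE; adjusted p = 0.484) in caPI3K and 0.17 ± 0.0802 (adjusted p = 0.368) in dnPI3K. Over all alternatives the caPI3K value lay at 0.23 to 0.39, with adjusted p of 0.259 to 0.893. The comparisons share those NTG arrays, so they are not independent.

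Several complex IV subunits come in a form restricted to heart and skeletal muscle and a form found in most tissues. Of subunit VIa, the muscle form Cox6a2 read 30859.6, 30859.6 and 32460.0 in NTG, 32030.1, 29348 and 32460.0 in caPI3K and 33102, 33583 and 35392 in dnPI3K. The common form Cox6a1 read 6735, 7253 and 6377 in NTG, 8833, 6872 and 6506 in caPI3K and 4978, 5925 and 5738 in dnPI3K. Within each array, the log2 ratio of the Cox6a2 to the Cox6a1 signal averaged 2.21 ± 0.130 (SD, n = 3) in NTG, 2.09 ± 0.230 in caPI3K and 2.62 ± 0.115 in dnPI3K. The 3 dnPI3K arrays had the highest ratios. The difference of 0.41 from NTG and that of -0.53 between caPI3K and dnPI3K each had a two-sided exact permutation p of 0.1, the smallest possible with 3 arrays against 3, and 0.2 after adjustment over 6 ratio comparisons. With the deposited values the differences shrank to 0.07 and -0.16, and Cox6a2 itself turned from 0.12 to -0.27 in dnPI3K against NTG. Cox6a1 alone kept its direction under all 3 scalings, at -0.29, -0.33 and -0.26 in dnPI3K against NTG, and did not pass in any (lowest adjusted p of these 0.261).

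**Figure D5:**
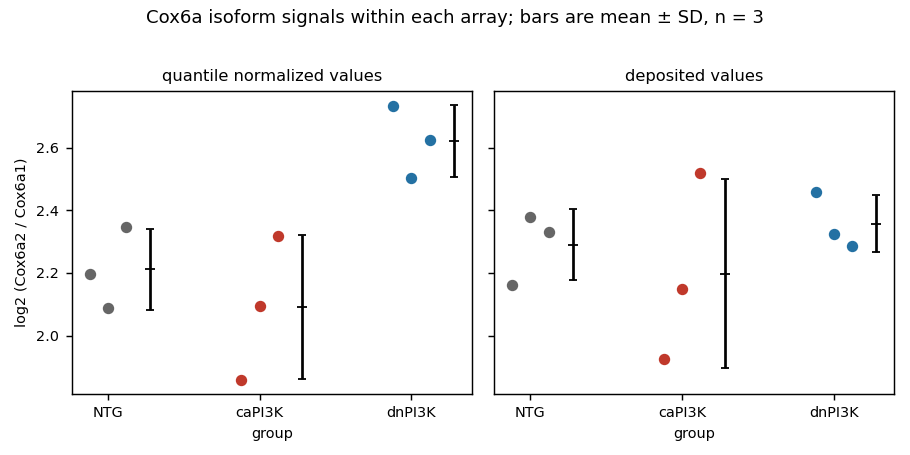
Log2 ratio of the Cox6a2 to the Cox6a1 signal on each array (points) with the mean and SD of 3 arrays (bars), after quantile normalization and with the deposited values. The dnPI3K arrays lie above the other groups on the left, at 2.50 to 2.73, and overlap both on the right.

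Of subunit VIIa, the muscle form Cox7a1 lay at -0.26 ± 0.102 (SE; adjusted p = 0.259) in dnPI3K against NTG, and the common form Cox7a2 at -0.02 ± 0.0752 (-0.20 with the deposited values). Their log2 ratio differed by -0.24 between dnPI3K and NTG (two-sided exact permutation p = 0.1, adjusted 0.2) and by -0.13 with the deposited values. So the ratio of muscle to common form lay above that of NTG for subunit VIa and below it for subunit VIIa. The skeletal muscle marker sums given above, lower in dnPI3K than in NTG, move with the group, and their part in these ratios was not tested. Of subunit VIII, the muscle form Cox8b lay at -0.19 in caPI3K (-0.07 at the same median) and -0.09 in dnPI3K (-0.16 with the deposited values), while Cox8a was below the floor on 7 of 9 arrays. Cox4i2 was not analysed here.

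Complex V, the ATP synthase, was the one complex with a median above 0 in dnPI3K against NTG (0.01, beside -0.05 in caPI3K), and that sign turned with the deposited values (-0.09) and at the same median (-0.02). Atp5mpl, a small proteolipid of its membrane part, came nearest to the threshold of all members. It read 12548, 12496 and 13363 in NTG, 10032, 10438 and 13840.3 in caPI3K and 15384, 16252 and 15574 in dnPI3K. The 3 dnPI3K arrays were the highest of the 9, while caPI3K split into a pair of low arrays and 1 above NTG. The log2 fold change in caPI3K against dnPI3K was -0.48 ± 0.114 (SE), with a 95% confidence interval of -0.73 to -0.22 and an adjusted p of 0.0518. It passed in 6 of 21 alternatives, among them without caPI3K replicate 3 (-0.61, adjusted p = 0.00764), and over all 21 its adjusted p lay at 0.00764 to 0.267. With the deposited values it was -0.32 (adjusted p = 0.233). Against NTG it lay at 0.30 ± 0.114 (adjusted p = 0.252) in dnPI3K, and at 0.12 with the deposited values.

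Atp5l, subunit g of the membrane part, read 23291, 24729 and 21737 in NTG, 23016, 23602 and 22363 in caPI3K and 26489, 27516 and 27075 in dnPI3K. It too was highest on the 3 dnPI3K arrays, at 0.22 ± 0.0793 (SE; adjusted p = 0.22) against NTG and -0.23 ± 0.0793 (adjusted p = 0.157) for caPI3K against dnPI3K. Its sign turned under both other scalings, to -0.09 with the deposited values and -0.01 at the same median in dnPI3K against NTG, and to 0.14 in caPI3K against dnPI3K under each. After quantile normalization the caPI3K against dnPI3K value passed where only probe sets above the median signal were tested (-0.23, adjusted p = 0.0444). Atp5j, coupling factor 6 in the stalk, lay at -0.33 ± 0.134 (SE; adjusted p = 0.688) in caPI3K against NTG, with all caPI3K arrays below all NTG arrays. The catalytic alpha subunit Atp5a1 and the gamma subunit Atp5c1 lay at -0.17 and -0.13 in caPI3K, also without overlap, and neither passed. At the same median both lay at -0.05 there. Other probe sets of Atp5c1 did not share its direction. A second bright one lay at 0.01 in caPI3K against NTG (limma adjusted p = 0.993). A dimmer one, which also carries the symbol Atp5c1-ps, lay at 0.63 ± 0.265 (SE; limma adjusted p = 0.691), with all caPI3K arrays above all NTG arrays.

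The numbers in the titles, taken as animal numbers, fall into a pair of series for caPI3K and NTG. In the series from 2800, with 2 arrays per group, the median over the members was -0.05 with 47 of 69 below 0, and in the series from 3100, with 1 array per group, -0.07 with 43 of 69. Sdha lay at -0.43 and -0.27 in these series and Cox7a2l at 0.31 and 0.20. The dnPI3K titles carry numbers from 1200 and 1400, so for that group series and transgene cannot be told apart.

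A further 26 probe sets interrogate member genes, and 21 of them, for 16 genes, were tested. None passed, and 15, 14 and 12 of 21 had the sign of the gene's brightest probe set in caPI3K and dnPI3K against NTG and in caPI3K against dnPI3K, in that order. Those of Cox6b2, Ndufa1, Atp5d, Atp5g2, Cox4i1 and Cox6c disagreed by more than 0.5 with the opposite sign in at least 1 comparison. These other probe sets gave dimmer signals than the ones used.

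Genes that build, supply or regulate the system were described alongside, from 5 lists, and no call given here turned its sign under an alternative. Of all probe sets 0.0845% passed in caPI3K against NTG, 2.18% in dnPI3K against NTG and 3.24% in caPI3K against dnPI3K. At an unadjusted p under 0.05, 3.68% were higher and 3.21% lower in caPI3K than in NTG, and 7.58% and 7.23% in dnPI3K. The list medians in caPI3K and dnPI3K against NTG were 0.04 and 0.02 for assembly factors, 0.02 and 0.13 for ubiquinone synthesis, -0.02 and -0.22 for carriers and kinases, -0.02 and 0.06 for regulators and -0.14 and -0.06 for the citric acid cycle, beside 0.00 over all probe sets.

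Of 49 listed assembly factors 20 were on the array and 19 were tested, and of these 0 passed in either comparison with NTG (at an unadjusted p under 0.05, 4 did in each). Here 2 were higher and 1 lower in caPI3K than in dnPI3K (1.7% and 1.54% of all probe sets were). Uqcc2, needed to assemble complex III, was higher by a log2 fold change of 0.57 ± 0.102 (SE; adjusted p = 0.0145), Sdhaf1, which helps insert the iron-sulfur clusters of complex II, by 0.63 ± 0.140 (adjusted p = 0.0358), and Cox17, a copper chaperone of complex IV, was lower by a log2 fold change of -0.51 ± 0.0910 (adjusted p = 0.0145). Each was lost when single arrays were left out: Uqcc2 and Cox17 in 3 of 9 cases (caPI3K replicates 1 and 2 with dnPI3K replicate 2 or 3, adjusted p up to 0.0728 and 0.0573), and Sdhaf1 in 6 of 9 (caPI3K replicates 1 and 2, the 3 dnPI3K arrays and NTG replicate 2, up to 0.138). Sdhaf1 was also lost at the same median, and all 3 calls were lost without an intensity trend. Over all 21 alternatives Uqcc2 and Cox17 were each lost in 4 (adjusted p up to 0.091 and 0.113) and Sdhaf1 in 9.

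Ubiquinone carries electrons between the complexes. Of 6 tested genes of its synthesis, 0 passed in caPI3K against NTG, also at an unadjusted p under 0.05. In dnPI3K against NTG 1 rose and 1 fell (1.01% and 1.16% of all probe sets did). At an unadjusted p under 0.05 in limma, 2 rose and 2 fell there (33.3% each, beside 7.58% and 7.23% of all). Coq10a, a ubiquinone-binding protein needed for respiration, read 3957, 3627 and 3314 in NTG, 3514, 3767 and 3549 in caPI3K and 5222, 5398 and 5490.3 in dnPI3K. All dnPI3K arrays lay far above the others, a rise of 0.57 ± 0.0847 (SE; adjusted p = 0.00769) over NTG that was kept without any single array and lost in 1 of 21 alternatives, the one without an intensity trend (adjusted p = 0.0877). Coq9, which binds lipids in ubiquinone synthesis, fell by 0.46 on the log2 scale (SE 0.101, adjusted p = 0.0456), a call lost in 14 of 21 alternatives, among them both other scalings and leaving out any 1 array but NTG replicate 3. In caPI3K against dnPI3K, Coq10a had -0.57 (adjusted p = 0.00484) and Coq9 0.43 (adjusted p = 0.0485, lost in 12 of 21, among them both other scalings and leaving out any 1 array but NTG replicate 2 or 3).

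Of 15 inner membrane carriers and kinases, Ckmt2, the mitochondrial creatine kinase that loads ATP energy onto creatine, was lower in dnPI3K and no other passed against NTG. It read 20877, 22680.2 and 21229.9 in NTG, 20877, 21229.9 and 20665 in caPI3K and 13794, 16399.8 and 17019 in dnPI3K. The dnPI3K arrays lay below all others, and the fall was -0.46 ± 0.0925 (SE; adjusted p = 0.0336), with 11 of 21 alternatives losing the call, among them leaving out any 1 array but dnPI3K replicate 3 or NTG replicate 3 (adjusted p up to 0.11) and scaling to the same median. At an unadjusted p under 0.05 in limma, 6 of the 15 genes were lower and 0 higher in dnPI3K than in NTG. These were 40% and 0%, beside 7.23% and 7.58% of all probe sets. In caPI3K against NTG the counts were 0 and 0. In caPI3K against dnPI3K, Ckmt2 (0.42, adjusted p = 0.0364) and the carnitine carrier Slc25a20 (0.56, adjusted p = 0.0293) were higher. Both calls were lost without any 1 of the caPI3K arrays or dnPI3K replicate 1 or 2, that of Slc25a20 also at the same median. Over all alternatives they were lost in 7 and 8 of 21 (adjusted p up to 0.176 and 0.132). Of 18 tested citric acid cycle genes, 0 passed against NTG (at an unadjusted p under 0.05, 3 in caPI3K and 2 in dnPI3K), and Idh2, mitochondrial isocitrate dehydrogenase, was lower in caPI3K than in dnPI3K (-0.76 ± 0.128 SE, adjusted p = 0.0105). That call was lost in 6 of 21 alternatives, among them both other scalings and leaving out caPI3K replicate 2 or dnPI3K replicate 2 (-0.55 at the least, adjusted p up to 0.0871).

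Among 18 tested regulators of mitochondrial biogenesis and oxidation, 2 fell in dnPI3K against NTG, where 1.16% of all probe sets did. In caPI3K against NTG 0 passed, also at an unadjusted p under 0.05. Ppara, the nuclear receptor of fatty acid oxidation, fell by 1.82 on the log2 scale (SE 0.166, adjusted p = 0.000574) and kept its call in 21 of 21 alternatives. Sp1, a general transcription factor, read 422, 488 and 859 in NTG, 519.9, 458 and 459 in caPI3K and 147, 213 and 235 in dnPI3K, a fall of 1.53 (SE 0.270, adjusted p = 0.0185). That call was lost in 5 of 21 alternatives, among them without dnPI3K replicate 1 or 2 and without an intensity trend (adjusted p up to 0.0713). Ppara and Sp1 were both higher in caPI3K than in dnPI3K, Ppara by 1.78 (adjusted p = 0.000296) and Sp1 by 1.30 (adjusted p = 0.0285). The Sp1 call was lost in 7 of 21 alternatives, among them without any 1 caPI3K array or dnPI3K replicate 1 or 2. At an unadjusted p under 0.05 in limma, 3 regulators were lower and 1 higher in dnPI3K than in NTG (16.7% and 5.56%, beside 7.23% and 7.58% of all). Ppard lay at -1.31 ± 0.359 (SE; limma adjusted p = 0.0997) in dnPI3K against NTG and did not pass. In caPI3K against dnPI3K it lay at 1.32 (limma adjusted p = 0.0816). Esrra, the estrogen-related receptor, lay at 0.01 in dnPI3K and -0.21 in caPI3K, and Gabpa, a subunit of GABP, at -0.15 and 0.11, and neither passed.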

How the data were processed

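Ventricular RNA of 9 mice, 3 per group, was hybridised to arrays scanned at a PMT setting of 10%, per the labels. The deposited values are intensity values on a linear scale, 1 per probe set and array; the sources used here do not say how the authors made them, but their trimmed mean is 500.4 on every array. Gene symbols came from the platform annotation, which gave 1 symbol for 10855 of 12488 probe sets, several for 396 and none for 1237.

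The values were quantile normalized, values under the 20th percentile (35.34, the floor) were set to it, and log2 was taken. The 66 array control probe sets were removed, and probe sets above the floor on at least 3 arrays were tested. One limma model (version 3.58.1, R 4.3.3) over all 9 arrays, with 6 residual degrees of freedom, moderated with an intensity trend, gave fold changes and SEs, and p-values were Benjamini-Hochberg adjusted over 10645 probe sets at a threshold of 0.05. The code was tested on simulated data. Ratios were compared by exact permutation of arrays. Replicate numbers follow accession order and pair nothing. The number of arrays limits the precision.

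Named members were drawn from those past the threshold, Sdha, the 2 with the smallest p per complex and comparison, isoform pairs, the brightest and dimmest per complex, and those whose other probe sets differ. From the other lists, genes past the threshold are named, with Ppard, whose p was among the smallest of its list. Esrra and Gabpa, like the members Ndufv1, Ndufc2, Cox5a, Sdhd and Atp5c1, were added after their values were seen. Members and lists were chosen with earlier results of these data known. Alternatives covered scaling, floor, filter, moderation, array weights, probe set choice, samples in the fit, animal series and left-out arrays.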

Additional observations from a re-analysis of the deposited data

How the results depend on the processing

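No member passed in caPI3K against NTG under any alternative. With the deposited values 1 member passed in dnPI3K against NTG (Cyc1) and 1 in caPI3K against dnPI3K (Ndufv2), beside 212 and 353 of all 10665 probe sets. Testing only probe sets above the median signal gave 1 (Ndufa3) and 3 (Atp5l, Atp5mpl and Ndufv1) of 63 members, beside 259 and 406 of all 6218 probe sets. In caPI3K against dnPI3K a floor at the 40th percentile, robust moderation, array weights and 1 probe set per gene each gave 1, Atp5mpl. Of all probe sets 410 of 7966, 344 of 10645, 527 of 10645 and 270 of 7478 passed in these settings, in that order. Leaving out 1 array gave 0 to 1 in caPI3K against dnPI3K and 0 to 1 by the F test. For the F test neither the gene nor the share of all probe sets was kept, so that count is not read further. In caPI3K against dnPI3K the members called were Atp5mpl without caPI3K replicate 3, Ndufa10 without dnPI3K replicate 3 and Ndufv2 without NTG replicate 3. Of all probe sets 213 of 10542, 186 of 10540 and 435 of 10528 passed there, in that order.

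The members' median log2 fold change moved with scaling: in dnPI3K against NTG to -0.20 with the deposited values and -0.12 at the same median, in caPI3K against dnPI3K to 0.12 and 0.13, and in caPI3K against NTG to 0.0068 at the same median (0.037 over all probe sets). Leaving out 1 array moved it over -0.096 to -0.056 in dnPI3K against NTG, -0.091 to -0.047 in caPI3K against NTG and -0.02 to 0.01 in caPI3K against dnPI3K. The cause was not tested. Of 4382 gene values under alternatives, 13 passed, and 242 changed sign without passing in either setting, 47 of them with a size over 0.1. No paired analysis was possible because the replicate numbers follow accession order and pair no arrays. The series of the animal number, fitted as a block in caPI3K against NTG, left 0 members called and a median of -0.09. Dim probe sets limit what can be said of Ndufc2, Cox5a, Cox6b2 and Ndufa12.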

Other observations

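A further 9 probe sets carry several symbols of which at least 1 belongs to the subunit genes. They were left out because their signal cannot be assigned to 1 gene. For 6 of them the whole symbol string fits the rule by which members were taken, so leaving these out goes beyond that rule. The counts of members that passed do not include any of the 9. All 9 were tested: 7 lay below 0 in caPI3K against NTG, 6 in dnPI3K against NTG and 4 in caPI3K against dnPI3K. In the last comparison 1 passed, beside 3.24% of all probe sets, and the smallest adjusted p in the others was 0.691 and 0.329. The probe set that passed carries the symbols Ndufs6b and Ndufs6, of complex I subunit genes, which both fit the symbol rule for members. It read 14293, 14356 and 14800 in caPI3K, 18175, 17407 and 19275 in dnPI3K and 16400, 15918 and 16534 in NTG, with caPI3K lowest, dnPI3K highest and no overlap. Its log2 fold change in caPI3K against dnPI3K was -0.34 ± 0.0744 (SE; limma adjusted p = 0.0364), and it was not run under the other scalings. Another probe set with the same symbols did not share this difference, at -0.06 ± 0.140 (SE; limma adjusted p = 0.899) with overlapping arrays.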
